A study of Mus musculus with 64 samples.

Results

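Chemokines are small secreted proteins that steer the movement of leukocytes, and their receptors are G protein-coupled receptors on the cells that respond. They are divided by the spacing of the first cysteines into CC, CXC, C and CX3C forms, and several of their genes lie side by side in the genome. In the heart they are made by cardiac fibroblasts, endothelial cells and resident macrophages, and the axis of Ccl2 and Ccr2 is known for bringing blood monocytes into injured tissue.

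The set described here was chosen by name: every entry of the expression table whose symbol is Ccl, Cxcl, Ccr or Cxcr followed by digits, plus Cx3cl1, Cx3cr1, Xcl1, Xcr1 and Pf4 (platelet factor 4, a CXC ligand). The genes described number 56 of 30285 entries: 21 CC ligands, 14 CXC ligands, 2 other ligands, 10 CC receptors, 7 CXC receptors and 2 other receptors. No expression value entered the choice. In the gene models of the mm9 build 14 of the genes lie on chromosome 11, 12 on chromosome 5 and 11 on chromosome 9.

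RNA was sequenced from 64 hearts of male C57BL6 mice that had surgery at 3 to 4 months of age, 1 library per heart. The 4 conditions were KOTAC (deletion of Ndufs4, a subunit of mitochondrial complex I, with transverse aortic constriction, TAC, which overloads the heart with pressure), KOSH (the deletion with sham surgery), WTTAC (wild type with TAC) and WTSH (wild type with sham surgery), each with 4 hearts taken 1, 2, 4 or 8 weeks later. The deletion was made by Cre recombinase under the αMHC promoter, which is active in cardiomyocytes, so the other cells of the heart keep the gene. The comparisons ask how pressure overload, the loss of Ndufs4 and both together moved the members, and when.

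Ndufs4 itself was at 20.3 to 43.8 FPKM in the 32 knockout hearts and 59.0 to 187.6 FPKM in the 32 wild type hearts, and the ranges did not overlap. FPKM corrects fragment numbers for the length of a transcript and the size of a library, so levels of different genes can be set side by side, but the depth of each library is unknown. Genes at 1 FPKM or more numbered 11689 to 13101 per library. The 8 cardiomyocyte markers summed to 22540 FPKM or more in every heart, and the summed lung and thymus markers stayed at or under 0.560 and 0.110 FPKM. With TAC 5 of the 8 cardiomyocyte markers were lower and 0 higher, where 16.6% of all genes were lower. Their median sum was 27840 FPKM in TAC and 32480 FPKM in sham hearts. What a fall of such abundant transcripts does to the FPKM of other genes was not tested. In 4 week 2 libraries (WTTAC hearts 3 and 4, KOTAC hearts 3 and 4) long transcripts read lower than short ones: the slope over genes of the log2 level, relative to the gene's mean over hearts, on log2 transcript length was -0.133 to -0.105 there and -0.0477 to 0.0661 in the other 60. This bears on the members because their median transcript length is 801 bases, against 1557 bases over all genes, so each week 2 change is followed by its value without these 4 libraries. Lengths of the tested members ranged from 398 to 3729 bases. Whether length lies behind the values of single members in these libraries was not tested. WTTAC week 1 heart 5 and WTTAC week 8 heart 2 stood nearer to the sham hearts than the other hearts of their groups for several members.

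Of the 56 members, 27 reached 1 FPKM in at least 4 libraries and were tested. The other 29 did not. Ccl20, Ccl26 and Ccl28 were listed at 0 in every heart, 22 had a highest value above 0 but under 1 FPKM, and Ccl24, Ccl3, Cxcl5 and Xcl1 reached 1 FPKM in 1 to 3 hearts, all of them TAC hearts. Several receptors were among the low members: the highest value of any heart was 0.0546 FPKM for Ccr3 (the receptor of Ccl11), 0.0465 FPKM for Ccr4 (the receptor of Ccl17), 0.0743 FPKM for Ccr8, 0.213 FPKM for Cxcr2 (the receptor of Cxcl1), 0.798 FPKM for Cxcr3 (the receptor of Cxcl9 and Cxcl10) and 0.803 FPKM for Ccr7 (the receptor of Ccl19). The highest value of Cxcl5 was 1.02 FPKM and that of Ccl3 (MIP-1alpha, a ligand of Ccr1) 1.63 FPKM.

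Under pressure overload most chemokine ligands and receptors that could be tested rose, and 1 ligand, Ccl11, fell under every scaling tried. Over both genotypes and the 4 weeks, 21 of the 27 rose, 1 fell and 5 did not pass the test (limma, adjusted p under 0.05). Of all genes tested, 72.4% passed in this comparison, 55.8% higher and 16.6% lower. The median change of the tested members was 0.40 on the log2 (FPKM + 1) scale against 0.134 over all genes. These counts are not evidence about the set, since 7 of the 27 reached 1 FPKM in fewer than 4 sham hearts and could be tested only because of the TAC hearts. These 7 were Ccl4, Ccl17, Ccl19, Cxcl10, Ccr1, Ccr2 and Cxcr6. Their p-values and ranges for TAC against sham, given below, are not independent of how they passed the filter. Among the 10 members at 1 FPKM or more in all 64 hearts, 7 rose, none fell and 3 did not pass the test. The median gene itself moved by 0.134 with TAC, and with values scaled by median-of-ratios, which removes that shift, 16 members rose and 3 fell (Ccl11, Ccl27a and Cxcl12), while the split over all genes moved to 4724 higher and 4805 lower against 7618 higher and 2271 lower. Whether fewer cells of a type or less RNA per cell lies behind a level cannot be told apart in bulk tissue.

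Among the CC ligands, Ccl11 (eotaxin, which attracts eosinophils) was the only one that passed the test as lower, although Ccl27a was also called lower with median-of-ratios scaling and without the 4 libraries with a length bias (-0.23, adjusted p = 0.00466). Ccl24, a further eosinophil attractant that was too low to be tested with the others, was at 0.0586 to 1.75 FPKM (median 0.326) in TAC hearts and 0.171 to 0.941 FPKM (median 0.614) in sham hearts, and was called lower when no filter on low values was applied (-0.22, adjusted p = 0.000331 by limma). Ccl11 was at 0.038 to 3.58 FPKM (median 0.411) in 32 TAC hearts and 1.17 to 5.69 FPKM (median 2.74) in 32 sham hearts. Only 5 TAC hearts reached 1 FPKM, and all 32 sham hearts did. The log2 fold change was -1.26 ± 0.10 (SE, adjusted p = 1.45e-16), with -1.25 in the knockout and -1.27 in the wild type. In the knockout the groups did not overlap, since the highest of 16 KOTAC hearts was at 1.02 FPKM and the lowest of 16 KOSH hearts at 1.17 FPKM. The fall passed the test in every week, at -1.26 in week 1, -0.91 in week 2 (-0.99 without the 4 libraries), -1.40 in week 4 and -1.46 in week 8. At week 8 KOTAC hearts were at 0.529, 0.105, 0.155 and 0.038 FPKM and KOSH hearts at 2.15, 2.88, 1.17 and 2.75 FPKM. In the wild type at week 8 the values were 1.52, 0.185, 0.0577 and 0.0974 FPKM with TAC and 3.64, 2.83, 2.19 and 3.18 FPKM with sham surgery. WTTAC heart 2 (1.52 FPKM) lay nearest to the WTSH hearts, and the groups did not overlap.

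**Figure D1:**
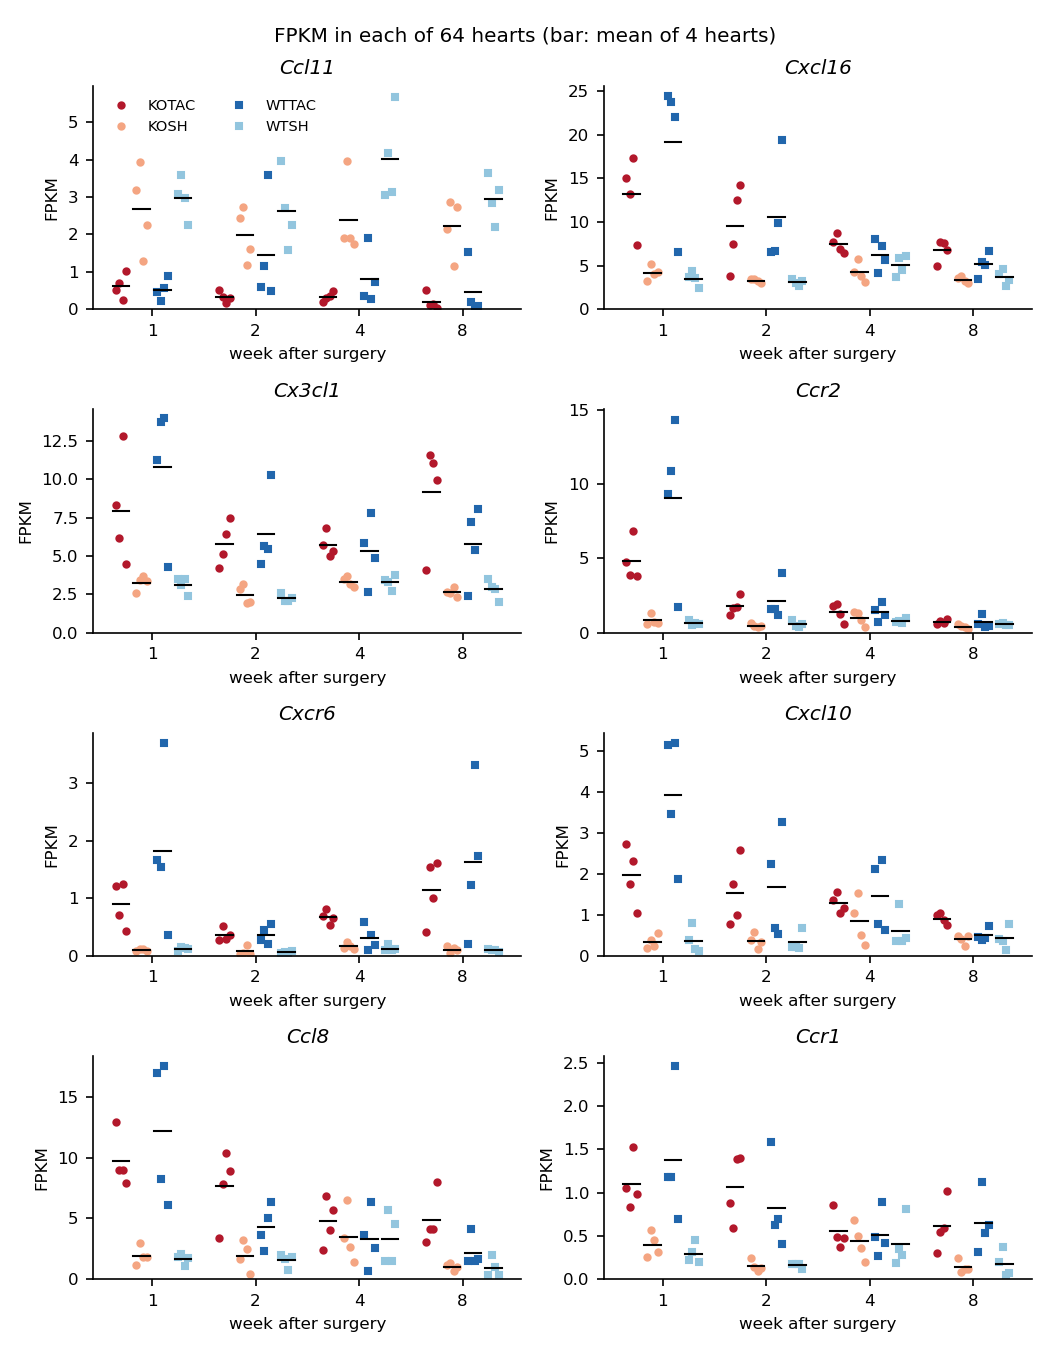
FPKM (vertical axes, linear) of the 8 members with the largest moderated t between TAC and sham, by week after surgery (horizontal axes). Each point is 1 heart, the bars are means of 4 hearts, and colours mark KOTAC, KOSH, WTTAC and WTSH. Ccl11 was low in nearly all TAC hearts, Ccr2 was highest at week 1, and Cxcr6 was high at weeks 1 and 8. Cxcl10, Ccr1, Ccr2 and Cxcr6 could be tested only because of the TAC hearts.

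The genes next to Ccl11 moved the other way. On the plus strand of chromosome 11 (mm9) the order is Ccl2 (chr11:81849073-81850955), Ccl7 (chr11:81859214-81861027), Ccl11 (chr11:81871325-81876457), Ccl12 (chr11:81915347-81916902) and Ccl8 (chr11:81928687-81930301), within about 81.2 kb. Ccl2 (MCP-1) and Ccl7 (MCP-3) are ligands of Ccr2, Ccl12 (MCP-5) is a further Ccr2 ligand of the mouse, and Ccl8 (MCP-2) acts through Ccr8 in the mouse. With TAC these 4 changed by 0.66 ± 0.13 (Ccl2), 0.27 ± 0.10 (Ccl7), 0.94 ± 0.13 (Ccl12) and 1.16 ± 0.13 (Ccl8) on the log2 scale, errors being SE, and each passed the test. The rise of Ccl7 did not pass it with median-of-ratios scaling (0.17, adjusted p = 0.121).

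**Figure D2:**
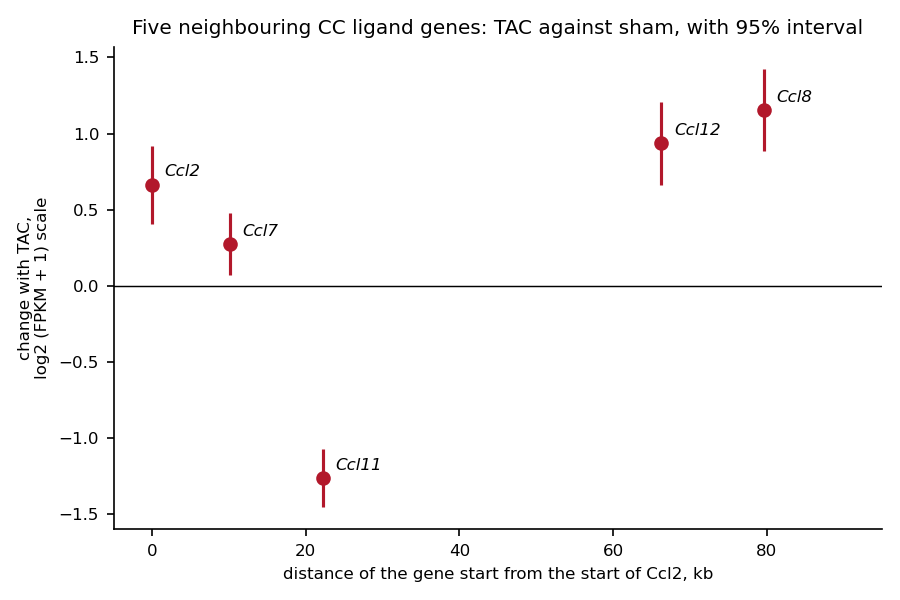
Change between TAC and sham (vertical axis, log2 (FPKM + 1) scale, both genotypes and all weeks, 32 hearts each) of neighbouring CC ligand genes against the distance of each gene start from that of Ccl2 (horizontal axis, kb). Bars are 95% intervals. Ccl11, at 22.3 kb, is the only one under 0.

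Ccl8 had the largest rise of the members tested on the log2 (FPKM + 1) scale. It was at 6.1 to 17.5 FPKM (median 8.94) in 8 TAC hearts of week 1 and 1.11 to 2.93 FPKM (median 1.79) in 8 sham hearts of that week, with no overlap. Its change was 2.04 ± 0.27 (SE, adjusted p = 5.76e-09) at week 1, 1.30 at week 2 (0.92 without the 4 libraries), 0.18 at week 4, where it did not pass the test (adjusted p = 0.701), and 1.10 at week 8. At week 8 KOTAC hearts had 3.07, 4.16, 4.1 and 7.98 FPKM and KOSH hearts 1.15, 1.31, 0.645 and 0.995 FPKM, so that the knockout groups did not overlap. WTTAC hearts had 1.47, 4.12, 1.5 and 1.63 FPKM and WTSH hearts 0.375, 1.98, 0.979 and 0.342 FPKM, and these groups overlapped.

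The week of the largest rise differed along the cluster. Ccl2 and Ccl12 are given here by week although they were chosen after their values were seen. Ccl2 was at 3.64 to 11.4 FPKM (median 6.37) in TAC hearts of week 2 and 0.368 to 1.35 FPKM (median 0.866) in sham hearts of week 2, without overlap, and changed by 2.03 ± 0.26 (SE, adjusted p = 5.04e-09), or by 1.97 without the 4 libraries. In the other weeks its change was 0.42 (week 1), -0.21 (week 4) and 0.42 (week 8), and none passed the test. At week 2 WTTAC hearts 1 and 2 had 8.99 and 11.4 FPKM, and hearts 3 and 4, with the length bias, had 7.40 and 5.34 FPKM. The week 4 value of Ccl2 leaned on KOSH heart 1, which had 17.4 FPKM against 1.56 to 2.64 FPKM in the other KOSH hearts, and was 0.12 (adjusted p = 0.732) without it. Ccl7 followed Ccl2, with 1.40 ± 0.21 (SE, adjusted p = 1.2e-07) at week 2, 1.22 without the 4 libraries, and values between -0.39 and 0.08 in the other weeks. Ccl12 rose at week 1 (1.42) and week 2 (1.53, 1.17 without the 4 libraries), and had 2.28 to 10.9 FPKM (median 7.12) in TAC hearts against 0.728 to 2.9 FPKM (median 1.27) in sham hearts at week 1, ranges that overlapped.

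Because Ccl12 and Ccl8 are adjacent and both rose, their promoters are shown. Cxcl10 is added as an interferon-induced member that rose and held matches to both the interferon and the NF-kappaB motif. The sequences are the 250 bases before the gene start in RefSeq (build GRCm38.p6), for Ccl12 at chr11:82101595-82101844 (plus strand), for Ccl8 at chr11:82114935-82115184 (plus strand) and for Cxcl10 at chr5:92348890-92349139 (minus strand), 5′ to 3′, with matches in capitals.
Ccl12: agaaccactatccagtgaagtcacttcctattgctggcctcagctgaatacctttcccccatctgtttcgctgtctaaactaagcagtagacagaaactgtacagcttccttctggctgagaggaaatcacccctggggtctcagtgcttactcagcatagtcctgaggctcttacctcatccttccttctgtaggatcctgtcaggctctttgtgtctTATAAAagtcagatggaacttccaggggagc
Ccl8: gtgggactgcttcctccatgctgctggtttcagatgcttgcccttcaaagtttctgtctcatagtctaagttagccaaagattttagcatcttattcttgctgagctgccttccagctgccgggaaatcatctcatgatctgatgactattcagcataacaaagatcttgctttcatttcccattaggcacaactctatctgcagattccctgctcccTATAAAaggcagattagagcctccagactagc
Cxcl10: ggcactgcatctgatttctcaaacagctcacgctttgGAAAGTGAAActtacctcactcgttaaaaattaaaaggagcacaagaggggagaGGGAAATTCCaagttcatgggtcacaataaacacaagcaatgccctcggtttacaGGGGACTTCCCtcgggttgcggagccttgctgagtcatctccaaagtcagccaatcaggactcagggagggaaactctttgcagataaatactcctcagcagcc
Of the 27 members tested, 21 had an entry in this promoter set. Both strands were searched for a TATA box (TATAAA), the interferon-stimulated response element (GAAANNGAAA) and the NF-kappaB consensus. The TATA box was at bases -31 to -26 of Ccl12 and -32 to -27 of Ccl8, counted from the gene start. It was found in 8 of the 21 members and in 12.4% of 32851 promoters of the same length. For each motif a member was counted if any of its promoters matched, while the shares are over single promoters. Cxcl10 held 1 response element, at -213 to -204, and 3 NF-kappaB matches, of which the pair at -104 and -103 overlap. The response element was in 3 of the 21 members and 2.98% of all promoters, and the NF-kappaB consensus in 4 of the 21 and 7.25% of all promoters. A match describes the letters and is no evidence of binding.

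Other CC ligands rose mainly in the first weeks. Ccl5 (RANTES) and Ccl4 (MIP-1beta), both attractants of T cells and monocytes, changed by 1.43 ± 0.22 (SE, adjusted p = 3.33e-07) and 0.94 ± 0.14 (SE, adjusted p = 6.29e-08) at week 1 and by 0.01 and 0.03 at week 8. Ccl5 was at 1.31 to 7.33 FPKM (median 3.36) in TAC hearts of week 1 and at 0.00 to 1.04 FPKM (median 0.649) in sham hearts of week 1, which do not overlap. Ccl4 was listed at 0 in some hearts of both kinds and at 0.324 to 2.44 FPKM (median 1.49) in TAC hearts against 0.00 to 0.488 FPKM (median 0.214) in sham hearts at week 1. At week 2 both rose (Ccl5 0.94, Ccl4 0.49), but neither passed the test without the 4 libraries with a length bias (Ccl5 0.50, adjusted p = 0.103, and Ccl4 0.25, adjusted p = 0.166).

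Ccl17, a ligand of Ccr4, averaged 0.545 ± 0.469 FPKM in KOTAC, 0.126 ± 0.218 FPKM in KOSH, 0.507 ± 0.484 FPKM in WTTAC and 0.113 ± 0.131 FPKM in WTSH hearts (SD, n = 16 each). It rose at week 1 (0.61) and week 8 (0.62). Ccl6 and Ccl9, chemokines of myeloid cells known from rodents, were among the more abundant members. Ccl6 averaged 9.9 ± 7.38 FPKM in KOTAC, 6.75 ± 2.75 in KOSH, 11.9 ± 7.94 in WTTAC and 8.03 ± 2.71 in WTSH hearts (SD, n = 16 each). Its change over both genotypes was 0.34 ± 0.14 (SE, adjusted p = 0.0284), and 0.19 (adjusted p = 0.229) with median-of-ratios scaling.

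Ccl9 varied more between hearts of 1 group than between groups, a pattern chosen after its values were seen. In WTSH hearts of week 8 it was at 18.6, 9.01, 3.13 and 22.6 FPKM, and in WTTAC hearts of week 8 at 26.3, 4.62, 3.13 and 3.39 FPKM. High and low hearts occurred in both groups. The change over both genotypes was 0.62 ± 0.21 (SE, adjusted p = 0.00835), with the largest weekly value at week 2 (1.66, 1.93 without the 4 libraries), and 0.46 (adjusted p = 0.0506) with quantile normalization.

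The remaining CC ligands moved little. Ccl19, a ligand of Ccr7, changed by 0.21 ± 0.08 (SE, adjusted p = 0.0211), by 0.15 (adjusted p = 0.099) with median-of-ratios scaling and by 0.14 (adjusted p = 0.136) without the 4 libraries with a length bias. Ccl25, a ligand of Ccr9, averaged 1.48 ± 0.371 FPKM in KOTAC, 1.27 ± 0.372 in KOSH, 1.41 ± 0.536 in WTTAC and 1.27 ± 0.455 in WTSH hearts (SD, n = 16 each). It did not pass the test (0.10, adjusted p = 0.142), nor did Ccl27a, a ligand of Ccr10 (-0.15, adjusted p = 0.0722), although Ccl27a was lower with median-of-ratios scaling (-0.29, adjusted p = 0.000913). Ccl19 and Ccl27a have near-identical gene copies in the mouse, which can share reads, so that their values are uncertain.

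**Figure D3:**
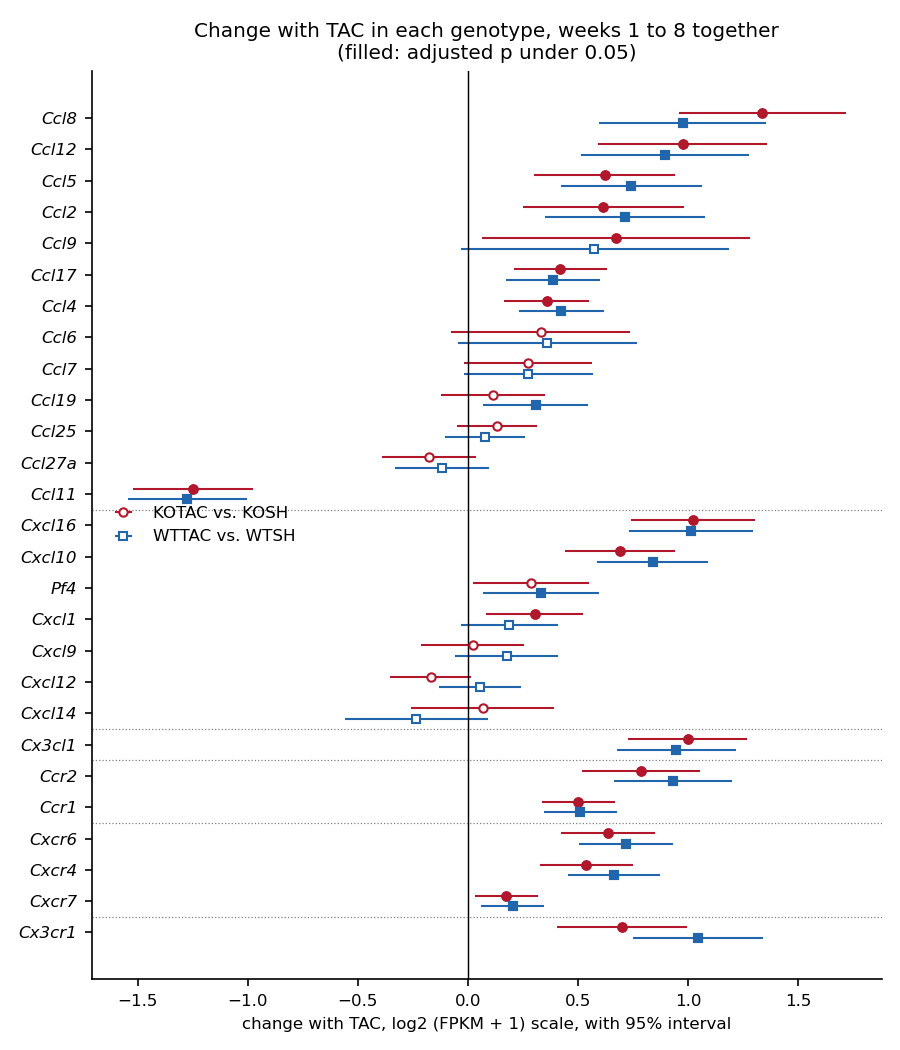
Change with TAC (horizontal axis, log2 (FPKM + 1) scale, 16 hearts against 16) of the 27 tested members (vertical axis, ordered by role) in KOTAC vs. KOSH (circles) and WTTAC vs. WTSH (squares). Bars are 95% intervals, filled symbols have an adjusted p under 0.05, and the intervals of the genotypes overlap for every member.

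The CXC ligands differed among themselves. Cxcl16, a membrane-bound ligand of Cxcr6, and Cxcl10, a ligand of Cxcr3, rose, while the most abundant member, Cxcl12, did not pass the test over all weeks (-0.06, adjusted p = 0.44). Cxcl12 was lower with median-of-ratios scaling (-0.23, adjusted p = 0.00215) and without the 4 libraries with a length bias (-0.18, adjusted p = 0.0013). Cxcl16 was at 6.56 to 24.5 FPKM (median 16.2) in TAC hearts and 2.42 to 5.17 FPKM (median 3.88) in sham hearts at week 1, and at 3.83 to 19.4 FPKM (median 8.71) against 2.71 to 3.48 FPKM (median 3.25) at week 2. The groups did not overlap in either week. They overlapped at week 8, at 3.51 to 7.76 FPKM (median 6.05) with TAC against 2.65 to 4.63 FPKM (median 3.43) with sham surgery. The change was 1.72 ± 0.20 (SE, adjusted p = 2.51e-10) at week 1, 1.27 at week 2 (0.74 without the 4 libraries), 0.47 at week 4 (adjusted p = 0.0941) and 0.60 at week 8 (adjusted p = 0.0117). In WTTAC at week 1 hearts had 24.5, 23.7, 22.1 and 6.56 FPKM, the lowest being heart 5, and without that heart the week 1 change was 1.93. At week 2 KOTAC hearts had 3.83, 7.54, 12.6 and 14.2 FPKM and WTTAC hearts 6.6, 6.64, 9.88 and 19.4 FPKM, and the 4 highest of these were the libraries with a length bias.

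Cxcl10, whose promoter is printed with those of Ccl12 and Ccl8, was at 1.04 to 5.2 FPKM (median 2.53) in TAC hearts of week 1 and 0.111 to 0.804 FPKM (median 0.309) in sham hearts of week 1. These did not overlap, and the change was 1.46 ± 0.18 (SE, adjusted p = 7.33e-10). It was 0.87 at week 2 (0.76 without the 4 libraries), 0.47 at week 4 (adjusted p = 0.0614) and 0.26 at week 8 (adjusted p = 0.235). Cxcl9, like Cxcl10 an interferon-induced ligand of Cxcr3, had another course. It was at 1.14 to 4.45 FPKM (median 2.92) in TAC hearts and 1.18 to 1.71 FPKM (median 1.39) in sham hearts at week 2, and at 0.378 to 1.2 FPKM (median 0.658) in TAC hearts and 1.28 to 2.36 FPKM (median 1.51) in sham hearts at week 8. Cxcl9 thus rose at week 2 (0.66) and fell at week 8 (-0.60 ± 0.17 (SE, adjusted p = 0.00245)). The week 2 rise was 0.44 (adjusted p = 0.0762) without the 4 libraries with a length bias. Over all weeks its change was 0.10 (adjusted p = 0.281), and -0.01 with median-of-ratios scaling.

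Cxcl12 (SDF-1, the ligand of Cxcr4 and Cxcr7) averaged 39.6 ± 12.1 FPKM in KOTAC, 43.6 ± 7.18 in KOSH, 53.0 ± 25.3 in WTTAC and 47.9 ± 7.59 in WTSH hearts (SD, n = 16 each), which are the highest levels of the set. At week 2 WTTAC hearts had 51.2, 56.3, 123 and 108 FPKM, and the 2 highest are hearts 3 and 4, which have the length bias. The median transcript length of Cxcl12 is 3013 bases, and long transcripts read lower in such libraries, while Cxcl12 read higher. Why it did so was not tested. With all libraries the week 2 change of Cxcl12 was 0.59 ± 0.13 (SE, adjusted p = 0.000147 by limma). Without the 4 libraries with a length bias it was 0.11 (adjusted p = 0.438 by limma). At week 4 Cxcl12 fell (-0.44 ± 0.13 (SE, adjusted p = 0.0166)), with adjusted p = 0.0531 when KOTAC week 4 heart 5 was left out.

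Cxcl14, a ligand also made by epithelial and stromal cells, changed sign between the weeks. At week 1 KOTAC hearts had 8.14, 3.45, 3.31 and 6.43 FPKM and KOSH hearts 8.02, 8.01, 7.08 and 9.14 FPKM, and they overlapped. At week 8 KOTAC hearts had 14.8, 13.3, 15.3 and 11.4 FPKM and KOSH hearts 7.07, 4.57, 8.79 and 5.96 FPKM, with all TAC hearts above all sham hearts. In the wild type WTTAC hearts had 5.44, 3.35, 5.12 and 4.43 FPKM at week 1, under every WTSH heart (11.01, 13.1, 8.98 and 8.01 FPKM), and 11.8, 15.4, 10.7 and 13.5 FPKM at week 8, above every WTSH heart (8.6, 8.89, 10.1 and 9.04 FPKM). Over both genotypes Cxcl14 fell at week 1 (-0.80 ± 0.23 (SE, adjusted p = 0.00224)) and rose at week 8 (0.71 ± 0.23 (SE, adjusted p = 0.0101)), the rise being 0.54 (adjusted p = 0.0564) with quantile normalization. At week 2 its change was -0.14 (adjusted p = 0.603), and without the 4 libraries with a length bias it was lower (-0.65, adjusted p = 0.0289). Averaged over the weeks it did not pass the test (-0.08, adjusted p = 0.515).

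Pf4, a CXC ligand of platelets that macrophages also make, averaged 12.9 ± 7.15 FPKM in KOTAC, 9.36 ± 1.56 in KOSH, 14.1 ± 6.87 in WTTAC and 10.2 ± 2.58 in WTSH hearts (SD, n = 16 each). It rose at weeks 1 (0.57) and 2 (1.09, or 0.62 with adjusted p = 0.0116 without the 4 libraries with a length bias), was -0.33 at week 4 and -0.10 at week 8 without passing the test, and its change over all weeks (0.31 ± 0.09 (SE, adjusted p = 0.00255)) was 0.19 (adjusted p = 0.0421) without the 4 libraries and 0.15 (adjusted p = 0.139) with median-of-ratios scaling. Cxcl1, which attracts neutrophils through Cxcr2, rose by 0.25 ± 0.08 (SE, adjusted p = 0.00404) over all weeks, with 0.12 (adjusted p = 0.158) after quantile normalization. In single weeks it passed the test at week 2 (0.59), and there not without the 4 libraries with a length bias (0.38, adjusted p = 0.099).

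Cx3cl1 (fractalkine, a membrane-bound ligand of endothelial cells and others) was the member whose rise passed the test in all 4 weeks. It was at 4.25 to 14.0 FPKM (median 9.77) with TAC and 2.38 to 3.72 FPKM (median 3.38) with sham surgery at week 1, at 4.19 to 10.2 FPKM (median 5.54) and 1.93 to 3.15 FPKM (median 2.18) at week 2, and at 2.4 to 11.6 FPKM (median 7.65) and 1.99 to 3.5 FPKM (median 2.72) at week 8. TAC and sham hearts did not overlap at weeks 1 and 2, and at week 8 only WTTAC heart 2 (2.40 FPKM) lay within the sham range. The changes were 1.20 ± 0.19, 1.05 ± 0.19, 0.56 ± 0.19 and 1.08 ± 0.19 (SE) at weeks 1, 2, 4 and 8, with 0.81 without the 4 libraries at week 2. The week 4 call (adjusted p = 0.037) was lost in 10 of the 64 fits that left out 1 heart, each a heart of week 4, with adjusted p of 0.0501 to 0.12. The TAC range of the summed endothelial markers was 259.7 to 748.5 FPKM against 227.6 to 366.9 FPKM in sham hearts, the highest sum being at week 2. Over all weeks 9 of 10 of these markers rose with TAC, where 55.8% of all genes were higher. In single weeks 4 of them rose at week 1, 10 at week 2, 0 at week 4 and 4 at week 8, where 1 fell. The part of endothelial cells in the change of Cx3cl1 was not tested.

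Among the receptors, Ccr2, the receptor of inflammatory monocytes, had the sharpest course. Like Ccr1 and Cxcr6, it could be tested only because of the TAC hearts. KOTAC hearts of week 1 had 4.73, 3.88, 6.86 and 3.78 FPKM and KOSH hearts of week 1 0.597, 1.31, 0.745 and 0.646 FPKM. WTTAC hearts of week 1 had 9.34, 10.9, 14.3 and 1.74 FPKM and WTSH hearts 0.845, 0.529, 0.613 and 0.575 FPKM. TAC and sham hearts did not overlap in either genotype, and WTTAC heart 5 (1.74 FPKM) was the lowest of the TAC hearts. At week 8 the ranges were 0.397 to 1.27 FPKM (median 0.619) with TAC and 0.217 to 0.666 FPKM (median 0.525) with sham surgery and overlapped. The change was 2.02 ± 0.19 (SE, adjusted p = 1.09e-12) at week 1 (2.29 without WTTAC week 1 heart 5), 0.92 at week 2 (0.75 without the 4 libraries), 0.32 at week 4 (adjusted p = 0.261) and 0.18 at week 8 (adjusted p = 0.454).

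Ccr1, a receptor of Ccl3, Ccl5 and other ligands on myeloid cells, was lower in level than Ccr2 but moved in 3 of the 4 weeks. It was at 0.695 to 2.46 FPKM (median 1.12) with TAC and 0.194 to 0.566 FPKM (median 0.314) with sham surgery at week 1, without overlap. The change was 0.71 ± 0.12 (SE, adjusted p = 9.02e-07) at week 1, 0.72 at week 2 (0.71 without the 4 libraries), 0.11 at week 4 (adjusted p = 0.569) and 0.48 at week 8.

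Of the CXC receptors, Cxcr6 (the receptor of Cxcl16, on T cells and natural killer T cells) was near 0 in sham hearts and had a high early and a high late point. It was at 0.369 to 3.7 FPKM (median 1.23) with TAC and 0.0761 to 0.16 FPKM (median 0.114) with sham surgery at week 1, and at 0.208 to 3.32 FPKM (median 1.38) and 0.0436 to 0.163 FPKM (median 0.101) at week 8, and the ranges did not overlap in either week. At week 8 KOTAC hearts had 0.408, 1.54, 1.01 and 1.62 FPKM and WTTAC hearts 0.208, 1.23, 3.32 and 1.74 FPKM, while all 8 sham hearts lay at or under 0.163 FPKM. The change was 0.98 ± 0.15 (SE, adjusted p = 1.91e-07) at week 1, 0.35 at week 2, 0.36 at week 4 (adjusted p = 0.0898) and 1.01 ± 0.15 (SE, adjusted p = 3.01e-07) at week 8. The week 2 rise did not pass the test without the 4 libraries with a length bias (0.36, adjusted p = 0.123).

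Cxcr4, the receptor of Cxcl12, was at 5.7 to 9.81 FPKM (median 6.48) with TAC and 2.2 to 4.74 FPKM (median 3.24) with sham surgery at week 1, without overlap, and rose at weeks 1 (0.89), 2 (0.88, 0.90 without the 4 libraries) and 4 (0.49). Week 4 had adjusted p = 0.0788 without KOTAC week 4 heart 2, and week 8 did not pass the test (0.15, adjusted p = 0.446). Cxcr7, the second and scavenging receptor of Cxcl12, was the most abundant receptor, at 22.9 ± 3.63 FPKM in KOTAC, 20.0 ± 2.01 in KOSH, 23.0 ± 4.26 in WTTAC and 19.7 ± 3.04 in WTSH hearts (SD, n = 16 each). Its rise of 0.19 ± 0.05 (SE, adjusted p = 0.00081) was little above the shift of the median gene and was 0.02 (adjusted p = 0.69) with median-of-ratios scaling.

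Cx3cr1, the receptor of Cx3cl1 on monocytes and macrophages, is described by heart although it was chosen after its values were seen. KOTAC hearts of week 1 had 2.8, 3.04, 5.34 and 2.25 FPKM and KOSH hearts 0.607, 1.62, 1.54 and 1.12 FPKM. WTTAC hearts of week 1 had 7.67, 13.1, 10.9 and 1.73 FPKM and WTSH hearts 1.03, 1.37, 0.811 and 0.697 FPKM. In both genotypes every TAC heart was above every sham heart at that week. Cx3cr1 rose at weeks 1 (1.48 ± 0.21 (SE, adjusted p = 2.71e-08)) and 2 (1.40, 1.31 without the 4 libraries) and did not pass the test at weeks 4 (0.37, adjusted p = 0.235) and 8 (0.25, adjusted p = 0.351).

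Macrophage markers were 1 of several lists of cell markers that moved with TAC. The sum of 13 macrophage markers was 193.5 to 494.7 FPKM (median 312.9) in TAC hearts against 83.1 to 126.7 FPKM (median 91.2) in sham hearts at week 1, 146.2 to 327.9 against 84.4 to 100.1 FPKM at week 2, 97.7 to 193.9 against 70.8 to 153.5 FPKM at week 4 and 84.9 to 169.8 against 73.6 to 130.2 FPKM at week 8. Of these markers 11, 11, 4 and 7 rose at weeks 1, 2, 4 and 8, where 54.5%, 39.7%, 11.2% and 34.2% of all genes were higher. Monocyte markers (7 of 7 tested rose over all weeks) and fibroblast markers (9 of 9, sum 395.9 to 3848 FPKM with TAC against 253.6 to 487.9 FPKM with sham surgery) moved as well, and 2 of 5 T cell markers rose and 1 fell. Dendritic cell, neutrophil and platelet markers rose in 3 of 3 tested each, B cell and mast cell markers in 3 of 4 each, and erythroid markers in 0 of 5. At week 1, however, 1 neutrophil marker rose and 2 fell. Over all weeks 55.8% of all genes were higher. The monocyte markers moved unequally, by 2.0 (Fn1), 1.57 (Vcan), 1.44 (Ace), 0.39 (Ly6c2), 0.38 (Ly6c1), 0.35 (Chi3l3) and 0.29 (Plac8), and their sum need not follow monocytes alone. The part of these cells in the changes of the chemokine ligands and receptors was not tested.

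By week, 15 of the 27 tested members rose and 2 fell at week 1 (62.4% of all genes passed, 54.5% higher and 7.92% lower), 20 rose and 1 fell at week 2 (60.4%, with 39.7% higher and 20.7% lower), 2 rose and 2 fell at week 4 (15.9%, with 11.2% higher and 4.75% lower), and 8 rose and 2 fell at week 8 (43.8%, with 34.2% higher and 9.59% lower). The week 2 count was 14 higher and 2 lower without the 4 libraries with a length bias. Without them 4461 of the 13653 genes were higher and 1082 lower at week 2. These weekly counts are not evidence about the set, since 7 of the 27 could be tested only because of the TAC hearts. Of those 7, the members that rose numbered 7, 5, 0 and 3 at weeks 1, 2, 4 and 8. Among the 10 members at 1 FPKM or more in all 64 hearts, 4, 7, 2 and 4 rose and 1, 0, 1 and 0 fell. The members that fell were Ccl11 in every week, Cxcl14 at week 1, Cxcl12 at week 4 and Cxcl9 at week 8. Ccl8, Ccl17, Cxcl14, Cxcl16, Cx3cl1, Ccr1, Cxcr7 and Cxcr6 were the members that rose at week 8. The median gene moved by 0.24 at week 1, and with median-of-ratios scaling Ccl27a (-0.57), Cxcl12 (-0.40) and Cxcr7 (-0.32) were lower at that week. At week 4 the count of 4 moved with single hearts: 8 members passed without WTTAC week 1 heart 5, which enters the shared estimate of spread and not the week 4 difference, 7 without WTTAC week 4 heart 2, and 2 without KOTAC week 4 heart 2 or heart 5.

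**Figure D4:**
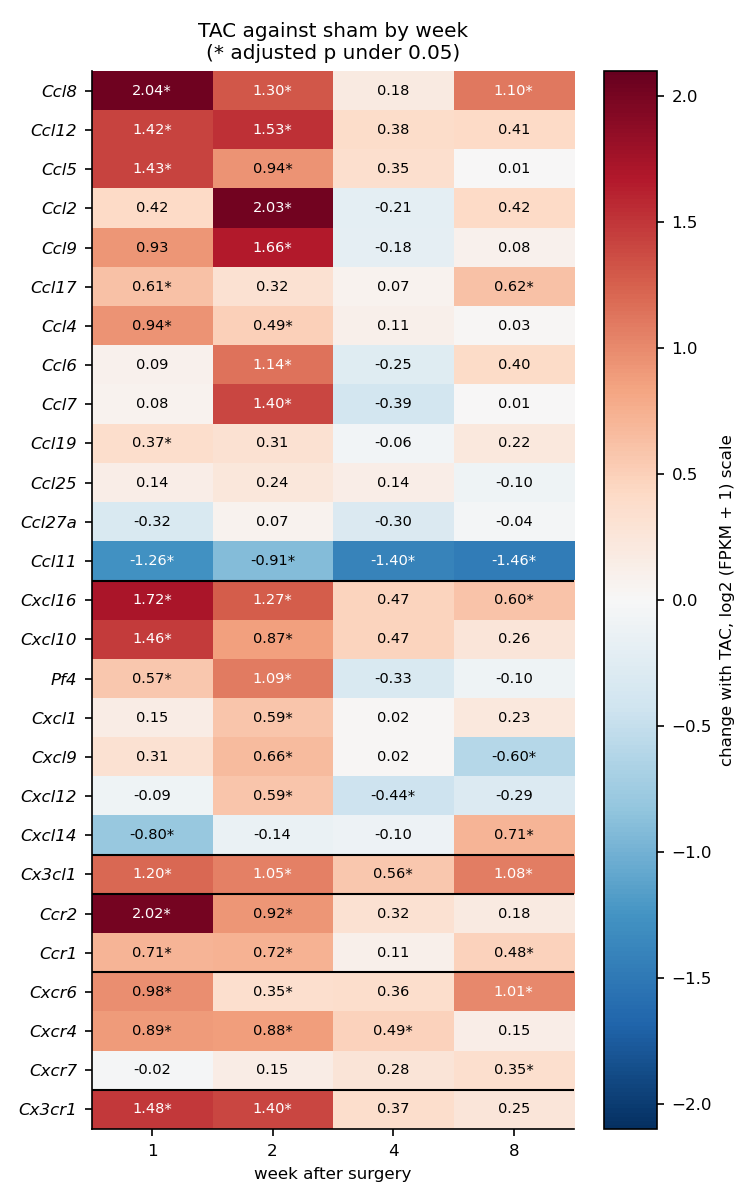
Change between TAC and sham at each week after surgery (columns, 8 hearts against 8) for the 27 tested members (rows, ordered by role), on the log2 (FPKM + 1) scale as number and colour, with * for an adjusted p under 0.05. Ccl11 is lower in all 4 columns, Ccl2 and Ccl7 peak at week 2, and Ccr2 is high at week 1 and near 0 at week 8.

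The difference between the weeks was tested directly, as the TAC change at week 1 minus that at week 8. It was positive for 8 members and negative for 1 (14.7% of all genes passed, 13.6% higher and 1.14% lower). Of the 8, 3 were among the members that could be tested only because of the TAC hearts. The 8 were Ccr2 (1.83 ± 0.27 (SE, adjusted p = 3.36e-06)), Ccl5 (1.42), Cx3cr1 (1.24), Cxcl10 (1.20), Cxcl16 (1.12), Cxcl9 (0.92), Ccl4 (0.91) and Cxcr4 (0.74), and the 1 with the opposite sign was Cxcl14 (-1.50 ± 0.32 (SE, adjusted p = 0.000767)). The difference did not pass the test for Cx3cl1 (0.12, 95% interval -0.42 to 0.67), Cxcr6 (-0.03, -0.46 to 0.40), Ccl11 (0.20, -0.34 to 0.74) and Ccl17 (-0.01, -0.44 to 0.41).

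The loss of Ndufs4 alone is read from the sham hearts. In KOSH vs. WTSH no member passed the test (limma model over all genes, of which 0.0513% passed). An unadjusted p under 0.05 was found for 631 of the 13653 genes and for 2 of the 27 tested members. These were Ccl11 (-0.33 ± 0.14, SE, adjusted p = 0.993 by limma) and Cxcl14 (-0.33 ± 0.16, SE, adjusted p = 1 by limma). Ccl11 averaged 2.32 ± 0.88 FPKM in KOSH hearts and 3.14 ± 0.963 FPKM in WTSH hearts (SD, n = 16 each), and the groups overlapped.

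The TAC change was also tested in each genotype. In KOTAC vs. KOSH 17 members rose and 1 fell (62% of all genes passed, 48% higher and 14% lower), and in WTTAC vs. WTSH 17 rose and 1 fell (59.9%, with 48.2% higher and 11.7% lower). Of the 7 members that could be tested only because of the TAC hearts, 6 rose in the knockout and 7 in the wild type. Among the 10 members at 1 FPKM or more in all 64 hearts, 5 rose in each genotype, near the share of all genes. Cxcl16 changed by 1.02 ± 0.14 in the knockout and 1.01 ± 0.14 in the wild type, Ccr1 by 0.50 ± 0.08 and 0.51 ± 0.08, and Cx3cr1 by 0.70 ± 0.15 and 1.05 ± 0.15 (SE). The test of the difference, the interaction of genotype and TAC, passed for no member and for 0% of all genes (limma, 0 members and 312 genes at an unadjusted p under 0.05). Its estimate was 0.01 (95% interval -0.39 to 0.41) for Cxcl16, 0.36 (-0.18 to 0.90) for Ccl8 and -0.34 (-0.76 to 0.07) for Cx3cr1, so that differences within these intervals cannot be told from none.

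Between the TAC hearts of both genotypes 1 member passed the test. Cxcl12 was lower in KOTAC than in WTTAC (-0.36 ± 0.09 (SE, adjusted p = 0.0436)), where 0.82% of all genes passed, 0.11% higher and 0.71% lower. The call was lost when any 1 of 18 hearts was left out and in the fit with only the hearts compared (adjusted p = 0.285), and it includes the week 2 libraries in which WTTAC hearts 3 and 4 had the highest values, although it held without the 4 of them (-0.33, adjusted p = 0.0331). Comparisons of KOTAC vs. WTTAC by week were added after the values were seen, and no member passed in them. Of all genes 0.00732%, 0.271%, 0.00732% and 0.022% passed at weeks 1, 2, 4 and 8. An unadjusted p under 0.05 (limma) was found for 4, 3, 1 and 3 of the 27 members. It was found for 1460, 1744, 553 and 891 of the 13653 genes. The 4 members of week 1 were Cx3cr1 (-0.91), Cxcl10 (-0.70), Ccr2 (-0.57) and Cxcr6 (-0.46). Each had a lower mean in KOTAC than in WTTAC and an adjusted p of at least 0.326 (limma).

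In KOTAC vs. WTSH, the comparison of both perturbations with neither, 15 members rose and 2 fell (60.7% of all genes passed, 43.3% higher and 17.5% lower). Of the 15, 6 were among the members that could be tested only because of the TAC hearts. Those that fell were Ccl11 (-1.58 ± 0.14 (SE, adjusted p = 4.29e-14)) and Cxcl12 (-0.30 ± 0.09 (SE, adjusted p = 0.00411)). This comparison shares its hearts with the others, so that its values are no separate evidence. Ccl8 (1.45), Cxcl16 (1.02) and Cx3cl1 (1.02) had the largest rises on the log2 (FPKM + 1) scale.

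Other genes of the pathway moved in the same comparison of TAC with sham. Of 10 atypical receptors and receptor-like genes 4 could be tested, and 3 rose and 1 fell. Ccrl1 (now Ackr4, a scavenger of CC ligands such as Ccl19) was at a median of 7.32 FPKM with TAC and 2.29 FPKM with sham surgery, a change of 1.25, Cmklr1 (the chemerin receptor) changed by 0.96, and Ccbp2 (now Ackr2, a scavenger of inflammatory CC ligands) by 0.61. Of 22 tested genes of signalling below the receptors 18 rose and 1 fell, among them Elmo1 (0.75) and the G protein subunits Gnai3 (0.60) and Gnb1 (0.47). Of 22 genes of the pathways that induce chemokine genes 18 could be tested, and all 18 rose, with the largest t for Ifngr1 (0.75), Tnfrsf1a (0.88) and Nfkb1 (0.48). All 6 tested proteases that cut chemokines rose, among them Mmp14 (1.54), Ctsk (1.61) and Adam10 (0.45), which is known to shed Cx3cl1 and Cxcl16 from the cell surface. Of 14 tested heparan sulfate carriers and adhesion genes 12 rose and 1 fell, with Hspg2 (0.83), Sdc3 (0.64) and Sdc1 (0.74) the clearest. These counts stand beside 55.8% of all genes that were higher and 16.6% that were lower in this comparison.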

How the data were processed

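Total RNA of 64 mouse hearts was sequenced by the study. Per the study's methods and notes, the authors used FastQC for read quality, TopHat for mapping to the mm9 build and Cufflinks for FPKM on Ensembl gene models. Tool versions are not given in the sources used here. FPKM were deposited on a linear scale for 30285 gene entries, 1 column per heart, and all 64 columns were used. FPKM values carry no read counts, so the depth of a library is unknown and precision rests on how far hearts of a group differ.

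Values were analysed as log2(FPKM + 1), a scale that understates the changes of low genes, over the 13653 genes that reached an FPKM of 1 in 4 or more libraries. limma 3.58.1 with a trend (R 4.3.3) had 1 mean per group (16 groups), and p-values were adjusted by Benjamini-Hochberg over all genes, with a threshold of 0.05. The study's own test on counts could not be used on FPKM. Conditions were compared as the mean over 4 weeks. The test was run on simulated data with independent normal noise, in which changes were added only to better expressed and less variable genes. That check does not cover low members with values of 0, nor the length bias or the shift of the median gene. Coordinates come from GENCODE models of mm9, and promoters from RefSeq (GRCm38.p6). Ccl2, Ccl7, Ccl11, Cxcl16, Ccl5 and Ccl4 had no promoter entry. Other steps used Python 3.11.15 with pandas 2.3.3, numpy 2.4.6 and matplotlib 3.10.9.

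The members, the other gene lists, the comparisons and the alternatives were chosen with earlier results of these data known. 1 further gene of that naming stayed in the fit over all genes and is not reported here. Members that passed the filter are named with values, single weeks and hearts are given for the 8 members with the largest moderated t between TAC and sham, and for 6 more (Ccl2, Ccl12, Ccl9, Cxcl12, Cxcl14 and Cx3cr1) chosen after their values were seen, and week ranges of others were also chosen so. Each pathway list is shown by its 3 called genes with the largest t. The alternatives were a pseudocount of 0.1, no filter, median-of-ratios scaling, quantile normalization, array weights, only the hearts compared, the replicate number as a block, leaving out 4 libraries with a length bias, and leaving out each heart. Hearts are separate animals.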

Additional observations from a re-analysis of the deposited data

Results flagged for a closer look

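In 22 of 224 groups of 4 hearts (9.82%, 14 members by 16 groups), 1 heart lay far from the other 3 by Dixon's criterion at its 95% level (the gap to the nearest heart as a share of the range of the group), which for normally distributed values picks about 1 in 20 groups by construction. Of these 11 were TAC groups and 11 sham groups. Values are FPKM, and the range of the other 3 hearts follows each.

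Among the CC ligands, Ccl11 was at 3.97 in KOSH week 4 heart 2 (others 1.73 to 1.91) and at 1.52 in WTTAC week 8 heart 2 (0.0577 to 0.185). Ccl8 was at 4.12 in WTTAC week 8 heart 5 (1.47 to 1.63). Ccl2 was at 7.31 in WTTAC week 4 heart 4 (1.91 to 2.55), at 17.4 in KOSH week 4 heart 1 (1.56 to 2.64) and at 3.07 in KOSH week 8 heart 1 (0.941 to 0.992). Ccl9 was picked in 5 groups: 18.5 in WTSH week 4 heart 4 (2.82 to 3.37), 12.0 in WTTAC week 4 heart 4 (2.41 to 3.82), 26.3 in WTTAC week 8 heart 2 (3.13 to 4.62), 2.07 in KOSH week 8 heart 1 (2.59 to 2.62) and 15.9 in KOTAC week 8 heart 2 (3.31 to 3.93). This was more than for any other of the 14, but Ccl9 was chosen after its spread between hearts was seen, so the count is no separate evidence.

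Among the CXC ligands, Cxcl16 was at 6.56 in WTTAC week 1 heart 5 (22.1 to 24.5), Cxcl10 at 0.677 in WTSH week 2 heart 4 (0.187 to 0.226) and at 1.27 in WTSH week 4 heart 2 (0.359 to 0.442), Cxcl12 at 48.9 in KOTAC week 1 heart 6 (39.8 to 40.7) and Cxcl14 at 19.8 in KOTAC week 2 heart 3 (5.12 to 6.43). Among the receptors, Ccr2 was at 4.03 in WTTAC week 2 heart 4 (1.17 to 1.61), Ccr1 at 0.119 in WTSH week 2 heart 4 (0.171 to 0.173), Cxcr6 at 0.182 in KOSH week 2 heart 3 (0.0381 to 0.0448) and at 0.202 in WTSH week 4 heart 2 (0.0966 to 0.111), and Cx3cr1 at 0.750 in KOSH week 2 heart 1 (0.188 to 0.25) and at 0.268 in KOTAC week 4 heart 5 (1.45 to 1.66).

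The TAC change at week 1 differed from that at week 8 for 9 members (limma, adjusted p under 0.05). The difference, week 1 minus week 8, was 1.42 for Ccl5, 0.91 for Ccl4, 1.12 for Cxcl16, 0.92 for Cxcl9, 1.20 for Cxcl10, 1.83 for Ccr2, 0.74 for Cxcr4, 1.24 for Cx3cr1 and -1.50 for Cxcl14 on the log2 scale.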

How the results depend on the processing

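Without a filter on low values 53 members had a value, and the counts of members passing the test were 35 (33 higher, 2 lower) for TAC vs. sham, 28 for WTTAC vs. WTSH, 27 for KOTAC vs. WTSH, 30 at week 1, 16 for week 1 minus week 8 and 0 for KOTAC vs. WTTAC. The 26 low members added 12 higher and 1 lower to TAC vs. sham. Over the 24564 genes then tested, 9395 were higher and 2709 lower in TAC vs. sham. The higher and lower genes were 7759 and 1796 for WTTAC vs. WTSH, and 6867 and 2748 for KOTAC vs. WTSH. They were 8818 and 1252 at week 1, 2104 and 180 for week 1 minus week 8, and 15 and 76 for KOTAC vs. WTTAC. The 1 call of KOTAC vs. WTTAC (Cxcl12) also became 0 with median-of-ratios scaling, with the replicate block and with only the hearts compared. At week 4 the count was 11 with array weights, 7 without the 4 libraries with a length bias and 7 with only the hearts compared, against 4, and with array weights it was 14 for week 1 minus week 8, against 9. With only the hearts compared no other value arose where all hearts are compared. The causes were not tested.

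With 1 heart left out at a time, members passing ranged from 21 to 23 for TAC vs. sham, 17 to 19 for WTTAC vs. WTSH, 16 to 19 for KOTAC vs. KOSH, 0 to 1 for KOTAC vs. WTTAC, 17 to 18 for KOTAC vs. WTSH, 16 to 19 at week 1, 20 to 23 at week 2, 2 to 8 at week 4, 10 to 11 at week 8 and 9 to 12 for week 1 minus week 8, and stayed at 0 for the interaction and for KOSH vs. WTSH. Week 4 gave 2 without KOTAC week 4 heart 2 or heart 5. Ccl9 in KOTAC vs. KOSH was lost in 39 of 64 such fits, and Ccl6 in TAC vs. sham in 2, among them that without WTTAC week 8 heart 2 (0.28, adjusted p = 0.0524).

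Single members in TAC vs. sham turned sign in 3 cases, none of which passed the test: Ccl25 with quantile normalization (-0.0484) and Cxcl9 with median-of-ratios scaling (-0.0107) and quantile normalization (-0.0569). Calls were lost for 5 members with median-of-ratios scaling, 7 with quantile normalization and 1 each with a pseudocount of 0.1, array weights, the replicate block and without the 4 libraries.

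Replicate numbers name hearts and were not used as pairs in the main fit. Deviations of same-numbered hearts of a week correlated at -0.36 to 0.53 (median 0.01, 77 pairs), and 15 of 59 hearts correlated best with their own number. At week 2, however, hearts 3 and 4 of both TAC groups shared the length bias. With the replicate block 21 members passed in TAC vs. sham (20 higher, 1 lower), against 22. Over all genes 7496 were then higher and 2147 lower, against 7618 and 2271.

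Depth is unknown from FPKM, and members under 1 FPKM in most hearts are the least certain.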
